A study of Mus musculus with 2 samples.

Results

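The natriuretic peptide system was described in the neonatal mouse heart through 10 genes, taken by symbol from the 55536 annotated genes of the deposited tables. They are the peptide precursor genes Nppa, Nppb and Nppc, the processing enzymes Corin, Furin and Pam, the receptors Npr1, Npr2 and Npr3, and the cGMP-dependent protein kinase Prkg1. Total RNA came from hearts of female B6CASTF1/J mice at 4 days of age, an F1 strain of the C57BL/6J and CAST/EiJ backgrounds, with no treatment named in the labels. Libraries were stranded and depleted of ribosomal RNA, were made from 300 ng of RNA each with synthetic ERCC control RNAs added. The 2 libraries form 1 group, replicates 1 and 2, so the design holds no contrast between conditions. The labels name the same donor for both, and only their biological replicate numbers separate the animals, so the spread may be partly technical. A two-sided permutation p could not go below 0.5 here, and none was computed.

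Atrial natriuretic peptide (from Nppa) and B-type natriuretic peptide (from Nppb) are hormones that heart muscle cells secrete when stretched, and they act on kidney, vessels and the heart itself. Each precursor is cut to its active form, which binds Npr1, a membrane receptor whose inner part makes cGMP. C-type natriuretic peptide (from Nppc) signals through the related receptor Npr2, while Npr3 lacks the cyclase part and chiefly clears the peptides. The cGMP formed activates Prkg1 among other targets. In the heart Nppa is a gene of atrial muscle, and of ventricular muscle before and around birth.

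The active peptides share a ring of 17 residues closed by a bond between a pair of cysteines, and the coding sequence of that ring shows how closely Nppb and Nppc are related. Its 51 bases were read from the annotated transcripts (GRCm38, GENCODE M21), with the 2 cysteine codons in capitals. The ring lies at chr4:147986464-147986514 on the plus strand in Nppb and at chr1:86669667-86669717 on the minus strand in Nppc, in each case within 1 coding exon.
Nppb: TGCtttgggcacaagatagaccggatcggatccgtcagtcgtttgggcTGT
Nppc: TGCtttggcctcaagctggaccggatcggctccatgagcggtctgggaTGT
Nppb and Nppc were identical at 40 of 51 bases and coded the same residue at 13 of 17 codons. After the ring, 6 codons followed in Nppb and 0 in Nppc, whose ring ends the coding sequence.

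Levels are given as TPM, a unit per length that allows genes of a library to be set beside each other, with mean ± SD of the 2 libraries. A TPM of at least 1 in both libraries was reached by 9 of the 10 genes, against 24.1% of all annotated genes. The same 9 reached a TPM of 10, against 12.7%. Nppc was the exception. All 10 genes are protein-coding, whereas the annotated genes include noncoding ones, so these shares are not those of like genes. Of the 13402 annotated genes at a TPM of 1 in both libraries, 11935 were nuclear protein-coding. For all 10 genes the posterior SD of the gene's count was 0 in both libraries, so no reads were shared out between them and other genes. Library totals were 36175363 and 32509660 expected counts in replicates 1 and 2, of which annotated genes held 35964801 and 32331718. A count of 0 allows up to 3 counts, or 0.0834 and 0.0928 CPM of the annotated genes' total.

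**Figure D1:**
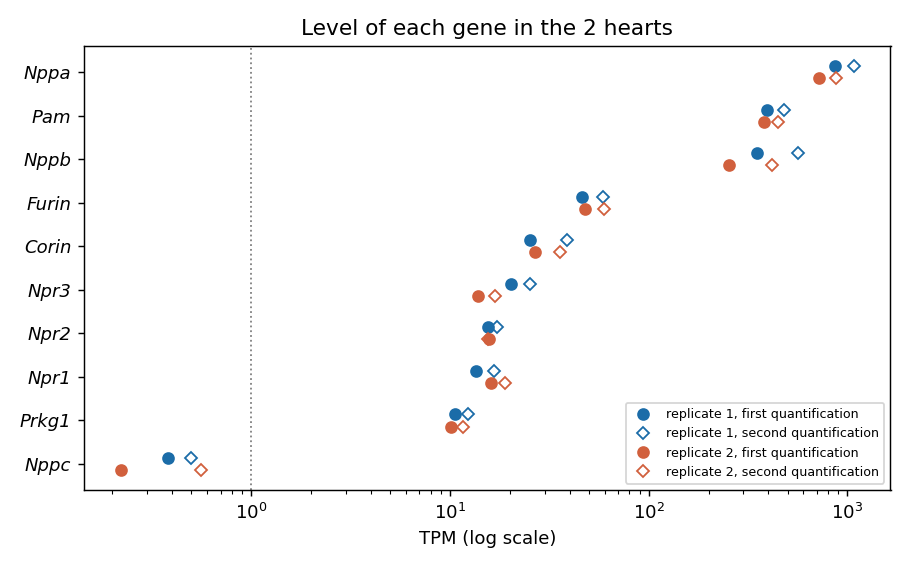
TPM of the 10 genes (log axis) in each library, with filled circles for the first deposited quantification and open diamonds for the second, and a dotted line at a TPM of 1. Nppa lies highest at 866 and 718 in the first quantification, and Nppc alone lies under the line.

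In the first quantification Nppa had the highest mean TPM of the group, followed by Pam and then Nppb. Nppa (ENSMUSG00000041616.9, chr4:148000722-148002079, plus strand) stood at 866 TPM in replicate 1 and 718 in replicate 2, a mean of 792 ± 104 (SD, n = 2). It ranked 42 by mean TPM among nuclear protein-coding genes, of which 11935 reached a TPM of 1 in both libraries. Nppb (ENSMUSG00000029019.8, chr4:147985788-147987205, plus strand) stood at 349 and 255 TPM, a mean of 302 ± 66.6, and ranked 232. The second quantification placed both higher, Nppa at 1078 and 874 TPM and Nppb, by more than 1.5 times, at 567 and 417. Both peptide genes were higher in replicate 1, and their ranges did not overlap.

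Within a heart, Nppa exceeded Nppb 2.48-fold in replicate 1 and 2.82-fold in replicate 2 in TPM, a mean log2 ratio of 1.40 ± 0.13. Nppa therefore led in both hearts by more than the spread between them. The second quantification kept that order with a smaller gap, at log2 ratios of 0.93 and 1.07. Nppa took 71.2% and 73.8% of the summed TPM of the 3 peptide genes, and Nppb 28.7% and 26.2%.

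Nppc (ENSMUSG00000026241.5, chr1:86666291-86670571, minus strand), whose product is known mainly from endothelium, growth plate and brain, was close to the limit of these libraries. It held 10 and 5 expected counts, or 0.38 and 0.22 TPM, a mean of 0.300 ± 0.113. The second quantification gave 9 counts in each library. Any difference in Nppc between the hearts was not detectable at this depth, with a log2 ratio of -0.82 and an exact 95% Clopper-Pearson interval from -2.79 to 0.79. This and all later intervals, as well as the limit for a count of 0, reflect counting error alone. They hold no variation between animals or libraries. The reads carry no molecular identifiers, so copies of a molecule count as separate reads and the intervals may be too narrow.

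Nppa and Nppb are neighbours: the annotated end of Nppb lies 13516 bases before the start of Nppa, with 0 annotated genes between them. Their promoters carry letters known as sites of cardiac transcription factors. The promoters are shown because factors of the GATA, NK2 and T-box families were measured in the same libraries. RefSeq promoter windows on GRCm38.p6 matched all 10 genes, and were searched over the 250 bases before the RefSeq start on both strands. The motifs were GATAA for GATA factors, AAGTG for NK2 factors such as Nkx2-5, TCACAC for T-box factors, CATTCC for the muscle MCAT element and TATAAA for the TATA box, and none of these overlapped another in either printed sequence. Capitals mark the matches.
Nppa, chr4:148000472-148000721, plus strand: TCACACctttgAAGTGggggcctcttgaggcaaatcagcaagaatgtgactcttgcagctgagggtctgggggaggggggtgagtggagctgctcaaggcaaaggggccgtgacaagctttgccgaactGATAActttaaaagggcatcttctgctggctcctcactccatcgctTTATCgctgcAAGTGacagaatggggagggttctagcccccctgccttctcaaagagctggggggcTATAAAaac
Nppb, chr4:147985795-147985821, plus strand: GGAATGcagctGATAAatcagaGATAA
The Nppa window held 2 GATA, 2 NK2, 1 T-box and 1 TATA match, and the Nppb window held 2 GATA, 1 MCAT and 1 TATA match. Among the other genes, counted in the window with the most matches where RefSeq gives several, Furin held 4 NK2 and 1 TATA match, Prkg1 held 1 GATA and 1 NK2, Nppc held 1 TATA, and none of the 5 motifs was found in the windows of Npr1, Npr2, Npr3, Corin and Pam. The stretch printed for Nppb begins 105 bases before the RefSeq start, which lies 112 bases after the GENCODE start. Under GENCODE the printed bases therefore belong to the first exon. The TATA match of Nppb lies outside the printed stretch, 31 bases before the RefSeq start, and thus also after the GENCODE start. At least 2 GATA matches occurred in 4.28% of 32851 promoters and at least 2 NK2 matches in 10.2%, while the T-box letters occurred in 12.3%, MCAT in 12.6% and TATA in 12.4%. Short letters of this kind are common, and a match describes the sequence without showing a bound site.

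Of 14 transcription factors known to act on the peptide genes, all 14 reached a TPM of 1 in both hearts. Tbx20, a T-box factor of heart muscle, was highest at 151 and 152 TPM. Mef2a, a MADS-box factor, stood at 111 and 109, and Gata4, a zinc-finger factor of early heart formation, at 101 and 108. Each of these differed little between the hearts, with log2 count ratios of -0.05 for Tbx20, -0.07 for Mef2a and 0.03 for Gata4. Between the hearts 6 of the 14 factors were lower in replicate 2 and 8 higher, with a median log2 ratio of 0.01, and 0 of 14 were lower with spike-in scaling.

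Among the processing enzymes, Pam was far above the others. Pam (ENSMUSG00000026335.16, chr1:97795114-98095646, minus strand) encodes the enzyme that amidates the ends of many peptides and is a major membrane protein of atrial secretory granules, although the natriuretic peptides themselves are not amidated. It stood at 394 and 379 TPM, a mean of 386 ± 10.4, and ranked 165 among nuclear protein-coding genes. Pam lay under Nppa in both hearts, by a log2 TPM ratio of 1.14 in replicate 1 and 0.92 in replicate 2, a pair chosen after its values were seen. Against Nppb no order held over both quantifications, because Nppb was lower than Pam in both hearts in the first (-0.17 and -0.57) but higher in replicate 1 in the second (0.24, and -0.11 in replicate 2).

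Corin (ENSMUSG00000005220.10, chr5:72300025-72504473, minus strand) encodes the membrane serine protease that cuts the atrial peptide precursor, and stood at 25.3 and 26.8 TPM, a mean of 26.0 ± 1.02. Furin (ENSMUSG00000030530.15, chr7:80388585-80405436, minus strand) encodes a convertase of the secretory route that cuts many precursors, among them the B-type one. It stood at 46.2 and 47.9 TPM, a mean of 47.0 ± 1.15. Furin exceeded Corin by log2 TPM ratios of 0.87 and 0.84, a mean of 0.85 ± 0.02 or 1.81-fold, and in the second quantification by 0.60 and 0.74. Between the hearts, the log2 count ratios of Furin (-0.04) and Corin (-0.02) were the smallest in size of the group. With spike-in scaling they were 0.09 and 0.12, and those of Pam (-0.04) and Prkg1 (0.03) were smaller.

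Other convertases were measured together with the glycosylating enzyme Galnt1. Of these 9 genes, 5 reached a TPM of 1 in both hearts and 0 were called different. Galnt1, which adds sugars to secreted proteins, was highest at 49.0 and 45.5 TPM, a range that overlapped that of Furin. Mbtps1, a protease of the Golgi, stood at 31.0 and 32.2. Pcsk6, a convertase reported to activate corin, stood at 14.5 and 19.8, with a log2 count ratio of 0.38 (0.29 to 0.48) and the higher value in replicate 2. The neuroendocrine convertases Pcsk1 and Pcsk2, chosen after their values were seen, held at most 17 counts and 1 count in a library.

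The granule proteins of neuroendocrine cells were almost undetected beside Pam. Chga, Chgb, Scg2, Scg3, Scg5 and Vgf, chosen after their values were seen, each lay at 0.23 TPM or less in both hearts. The genes of that list at a TPM of 1 in both hearts were 5 of 12. They were Adm, whose peptide adrenomedullin is amidated, the receptor Calcrl and its partners Ramp1, Ramp2 and Ramp3. Ramp2, a partner of the adrenomedullin receptor, stood at 59.4 and 57.4 TPM, the receptor Calcrl at 18.4 and 17.4, and Ramp1 at 10.8 and 10.8. Adm2 had 0 counts in both libraries.

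The 3 receptors lay close together and their order differed between the hearts. Npr1 (ENSMUSG00000027931.12, chr3:90450591-90465866, minus strand) stood at 13.5 and 16.2 TPM, a mean of 14.8 ± 1.88. Npr2 (ENSMUSG00000028469.15, chr4:43631935-43651244, plus strand) stood at 15.6 and 15.7, a mean of 15.6 ± 0.120. Npr3 (ENSMUSG00000022206.7, chr15:11839896-11907287, minus strand) stood at 20.3 and 13.8, a mean of 17.035 ± 4.55. Npr3 was the highest of the 3 in replicate 1 and, in the first quantification, the lowest in replicate 2, and all 3 ranges overlapped.

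**Figure D2:**
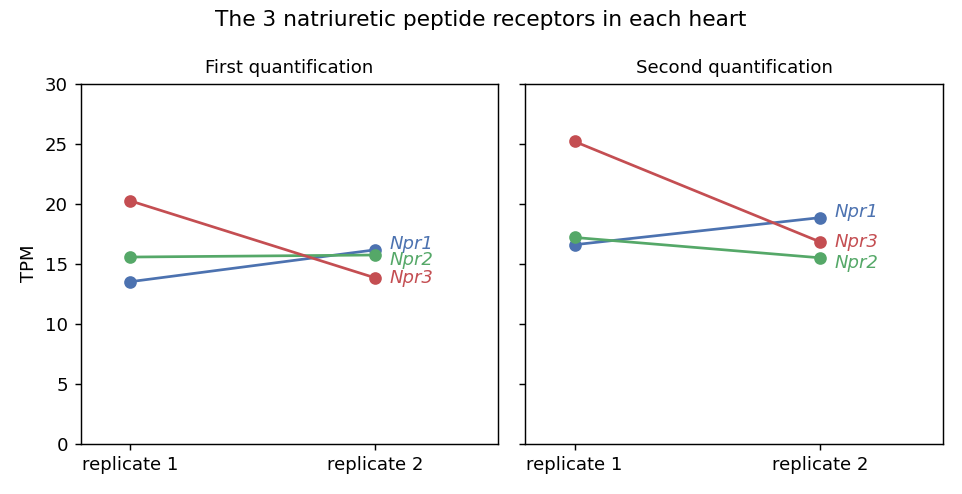
TPM of Npr1, Npr2 and Npr3 in replicates 1 and 2, joined by a line per gene, for the first quantification (left) and the second (right), on an axis from 0. Npr3 leads in replicate 1 in both panels, at 20.3 and 25.2, and loses the lead to Npr1 in replicate 2.

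In the first quantification no order of the receptors held over the libraries. In the second, Npr3 lay above Npr2 in both, by log2 TPM ratios of 0.55 and 0.12, a pair chosen after its values were seen, while Npr1 again exchanged places with Npr3. Npr3 exceeded Npr1 by a log2 TPM ratio of 0.59 in replicate 1 and lay under it at -0.22 in replicate 2, a mean of 0.18 ± 0.57. In counts, which do not depend on the length estimated in each library, Npr3 to Npr1 went from 2.01 in replicate 1 to 1.26 in replicate 2, a log2 change of -0.67 (exact interval -0.81 to -0.53). That interval left out no change, with the limits given above for such intervals. Npr3 took 41.1% of the summed receptor TPM in replicate 1 and 30.2% in replicate 2, and 42.7% and 32.9% in the second quantification.

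Npr2 to Npr1 differed by 0.21 and -0.04 in log2 TPM, a mean of 0.08 ± 0.17, with no order. The count ratio of this pair differed between the hearts by a log2 change of -0.12, with an interval of -0.28 to 0.05 that includes no change. For Npr1 the log2 ratio between the hearts was 0.26 in TPM and 0.07 in scaled counts, and its effective length was 3564 bases in replicate 1 and 3311 in replicate 2.

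Prkg1 (ENSMUSG00000052920.15, chr19:30564489-31765033, minus strand), the cGMP-dependent kinase type I, was the lowest of the 9 genes above a TPM of 1. It stood at 10.6 and 10.1 TPM, a mean of 10.3 ± 0.339. Prkg2, the type II kinase, chosen after its values were seen, held 2 counts in each library. Of 12 partners and substrates of the kinase, 9 reached a TPM of 1 in both hearts. Pln, phospholamban, the inhibitor of the calcium pump of heart muscle, was highest at 1377 and 1469 TPM, followed by the small GTPase Rhoa at 154 and 151 and the myosin phosphatase subunit Ppp1r12a at 76.7 and 77.8.

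Genes of other cGMP makers ranged from levels near those of the receptors to almost none. Of 12 guanylyl cyclase and nitric oxide synthase genes, 5 reached a TPM of 1 in both hearts. Gucy1a1 and Gucy1b1, subunits of the cyclase that nitric oxide activates, stood at 17.6 and 18.8 TPM and at 10.9 and 11.8. Nos3, the endothelial nitric oxide synthase, stood at 17.5 and 18.5. The other membrane cyclases of that list, Gucy2c, Gucy2d, Gucy2e, Gucy2f and Gucy2g, chosen after their values were seen, each lay at 0.07 TPM or less.

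Among enzymes that break down cGMP, 8 of 13 reached a TPM of 1 in both hearts. Pde1c, which calcium and calmodulin activate, was highest at 36.6 and 44.3 TPM, followed by Pde3a at 24.9 and 27.3 and the cGMP-stimulated Pde2a at 18.8 and 20.5. Pde5a, the target of sildenafil, was chosen after its values were seen and stood at 4.31 and 5.17. Pde6a, Pde6b and Pde6c, of photoreceptors, had 0 counts in both libraries, although the second quantification gave Pde6a 3.18 and 1.55 TPM. Of 7 genes of peptide breakdown, 4 reached a TPM of 1 in both, with Ece1, an endothelin-converting enzyme, at 59.1 and 54.6 TPM, the insulin-degrading enzyme Ide at 45.1 and 47.6, and Dpp4 at 4.69 and 2.63. Mme, neprilysin, the best known protease of natriuretic peptides and chosen after its values were seen, stood at 1.88 and 2.46. Mep1a and Mep1b, the meprin subunits, had 0 counts in both libraries.

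Between the hearts, counts were scaled by TMM and a call needed a fold of at least 2, an exact interval that left out 0, a mean TPM of 1 or more and 20 or more counts in all. Of the 9 members tested (Nppc fell under the filter), 0 were called, against 0.860% of 13598 genes tested. At a fold of 1.5 the count was 1, Npr3, against 2.29% in either direction and 1.30% lower in replicate 2, the direction of Npr3. These comparisons set 1 library against another and have no replicate check. The 7 related lists, from convertases to transcription factors, held 79 measured genes, of which 51 were tested and 0 called, 26 of them lower in replicate 2 and 25 higher. With spike-in scaling 7 of the 51 were lower.

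**Figure D3:**
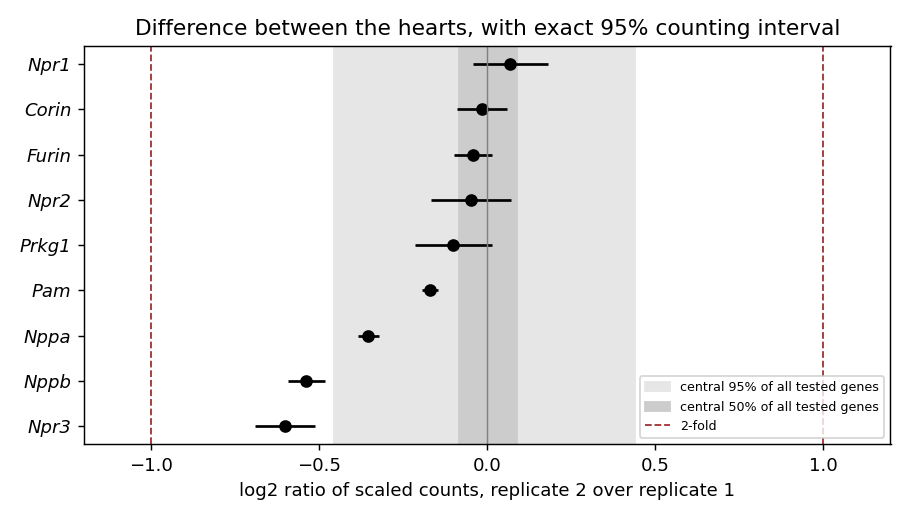
Log2 ratio of scaled counts, replicate 2 over replicate 1, for the 9 tested genes, with bars for the exact 95% counting interval. Shading covers the central 95% and 50% of all 13598 tested genes and dashed lines mark a 2-fold difference: Npr3 (-0.60) and Nppb (-0.54) lie left of the wider band and no gene reaches a dashed line.

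The tested genes tended to be lower in replicate 2, at 8 of 9 with a median log2 ratio of -0.10, against 51.1% of all tested genes and a median of -0.003. That lean depends on the scaling: 4 of 9 were lower when counts were scaled to the spike-ins, which moved the median of all genes to 0.13, and 6 of 9 with total counts. For 4 genes the interval lay below 0, against 13.3% of all tested genes. That share includes many genes of fewer counts, whose intervals are wider, so it is not a share of like genes. The 4 genes were Npr3 at -0.60 (-0.69 to -0.51), Nppb at -0.54 (-0.59 to -0.48), Nppa at -0.35 (-0.39 to -0.32) and Pam at -0.17 (-0.19 to -0.15). All 4 stayed lower in replicate 2 with spike-in scaling, at -0.47, -0.40, -0.22 and -0.04.

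A ratio as large as that of Npr3 was seen in 2.83% of all tested genes, as that of Nppb in 3.49%, as that of Nppa in 7.95% and as that of Pam in 24.5%. Of the 4, Npr3 and Nppb lay outside the central 95% of all tested genes, which ran from -0.46 to 0.44. Among the 7761 tested genes with a summed count of at least 1000, a depth that all 9 members reached, such ratios were rarer: 0.438% for Npr3, 0.541% for Nppb, 1.55% for Nppa and 10.8% for Pam. The other 5 genes had intervals that included 0: Npr1 at 0.07 (-0.04 to 0.18), Corin at -0.02 (-0.09 to 0.06), Furin at -0.04 (-0.10 to 0.01), Npr2 at -0.05 (-0.17 to 0.07) and Prkg1 at -0.10 (-0.22 to 0.01).

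Marker genes of cardiac cell types also differed between the hearts, and in bulk tissue fewer cells of a type and less RNA per cell cannot be told apart. Ventricular markers, led by Myl2 and Myl3, summed to 13180 and 13843 TPM and all 8 reached a TPM of 1 in both hearts. Of these 8, 3 were lower in replicate 2 and 5 higher, with a median log2 ratio of 0.01. Atrial markers summed to 1343 and 1135 TPM, 14 of 15 reached a TPM of 1 in both, and 14 of 14 tested were lower in replicate 2, with a median log2 ratio of -0.33 (9 of 14 lower with spike-in scaling). Endocardial markers summed to 73.6 and 63.8 TPM with a median of -0.45 and 6 of 6 lower, and epicardial and mesothelial markers to 93.4 and 73.4 with a median of -0.64 and 8 of 8 lower. Endothelial markers were nearly even, at 628 and 634 TPM with a median of -0.05, and fibroblast markers were higher in replicate 2, at 1686 and 2029 TPM with a median of 0.16. Smooth muscle and pericyte markers were mixed, with 3 lower in replicate 2, 6 higher and a median of 0.03. Erythroid genes (17279 and 221 TPM) and skeletal muscle genes (307 and 132) stood far apart between the libraries. Of the skeletal muscle sums Acta1 alone held 263 and 125 TPM, and Mylpf, the next gene of that list, 14.6 and 1.23. The part of both lists in the values of the natriuretic genes was not tested.

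**Figure D4:**
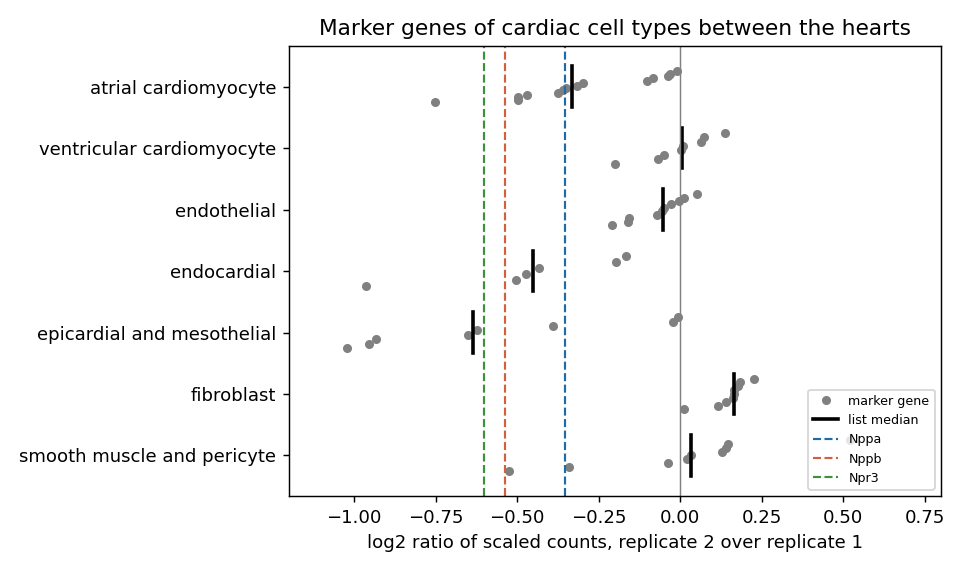
Log2 ratio of scaled counts, replicate 2 over replicate 1, for each tested marker gene (grey points) of 7 cell type lists, with the list median as a black bar and dashed lines at the ratios of Nppa, Nppb and Npr3. The line of Nppa passes beside the atrial median of -0.33, and the line of Npr3 lies between the endocardial median of -0.45 and the epicardial one of -0.64.

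The difference of Nppa between the hearts was not told apart from that of the summed atrial markers, whose single log2 ratios ran from -0.75 (Bmp10) to -0.01 (Nr2f1). Myl7 held 9873 and 7185 of the 32482 and 23843 list counts and Myl4 held 8660 and 6534, so the sum rests mostly on this pair. The count ratio of Nppa to the atrial list was 0.573 in replicate 1 and 0.567 in replicate 2, a log2 change of -0.02 (-0.06 to 0.02). Against Myl7 alone, the atrial myosin light chain and the most abundant gene of the list, the ratio was 1.89 and 1.88, a log2 change of -0.004 (-0.06 to 0.05). Nppa and Myl7 were paired after their values were seen, and Myl7 is no separate check on the sum. Nppb was lower in replicate 2 also relative to the list, by a log2 change of -0.20 (-0.26 to -0.14), and Pam was higher relative to it, at 0.17 (0.13 to 0.20). The counts of Nppa and Nppb accordingly differed in balance between the hearts, at 2.79 Nppa counts per Nppb count in replicate 1 and 3.17 in replicate 2, a log2 change of 0.18 (0.12 to 0.25). Ventricular muscle also holds Nppa around birth, and the ventricular markers had a median log2 ratio of 0.01. The ratio of Nppa to those markers was not computed. The part of either kind of muscle in the level of Nppa was not tested.

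Npr3 is known from endocardium and kidney, among other sites. Its log2 ratio of -0.60 was close to the epicardial and mesothelial median of -0.64, and 5 of the 8 genes of that list had lower ratios than Npr3. Relative to the summed counts of the endothelial markers Npr3 was lower in replicate 2 by a log2 change of -0.54 (-0.63 to -0.44). For the endocardial markers, of whose 7772 counts in replicate 1 Cgnl1 (-0.20) held 4005, the log2 change was -0.30 (-0.40 to -0.19). Relative to the summed counts of the epicardial and mesothelial markers, which include Aldh1a2 (-0.02) and Tbx18 (-0.01), nearly even between the hearts, the log2 change was -0.17 (-0.28 to -0.07). Against Plvap alone, a gene of the endocardial list chosen after its values were seen, the log2 change of -0.10 had an interval of -0.27 to 0.07 that included no change. The part of these cell types in the level of Npr3 was not tested.

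Transcripts were described by their share of the gene's TPM, and a transcript was named where it held at least 10% in either library by either quantification. Nppa, Nppb and Nppc have 1 annotated transcript each. Of 60 transcripts over the 10 genes, 25 met the rule. The 2 quantifications differed more from each other than the hearts did for several genes.

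**Figure D5:**
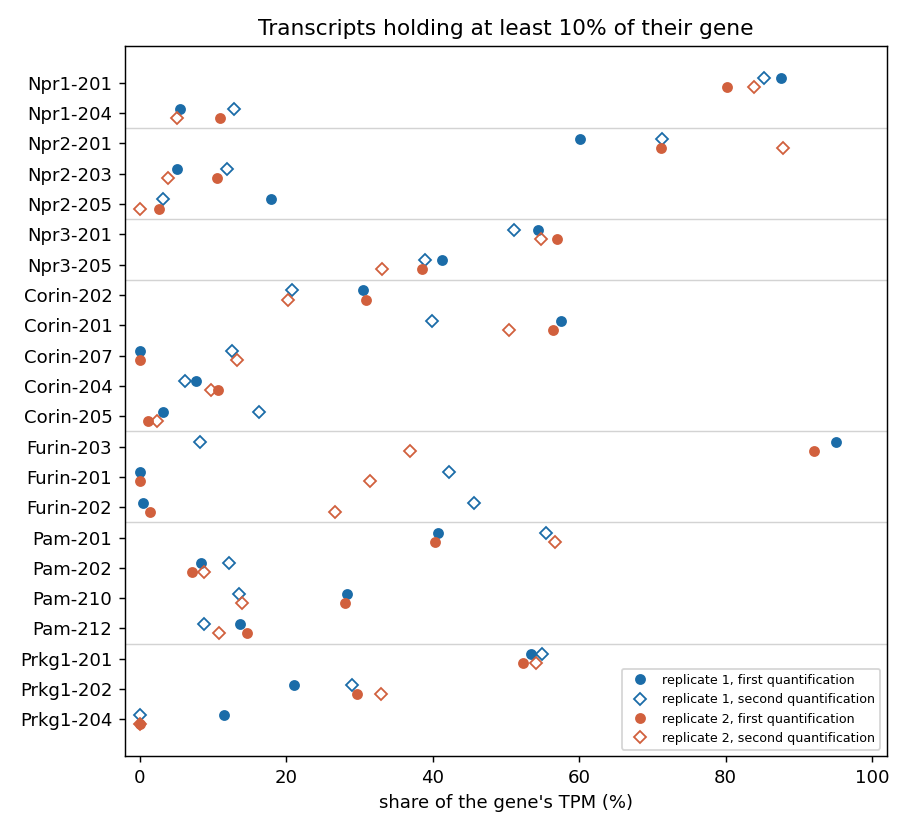
Share of the gene's TPM (percent) of each named transcript of the genes with more than 1 transcript, by replicate (color) and quantification (filled circles for the first, open diamonds for the second). The circles of Furin-203 stand at 95.1 and 92.0 while its diamonds stand at 8.20 and 36.9.

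Pam-201 and Pam-202 hold a coding exon of 318 bases at chr1:97864203-97864520, between the parts that code for the 2 catalytic domains, which Pam-210 lacks. Pam-201 held 40.7% and 40.3% of the gene, and Pam-210 28.3% and 27.98%. Pam-202, which differs from Pam-201 by 3 bases of another exon, held 8.32% and 7.15%, and Pam-212, a short transcript of 657 bases, 13.8% and 14.6%. Of Pam-201, Pam-202 and Pam-210 together, those with the exon made up 63.4% in replicate 1 and 62.9% in replicate 2. Pam-210 also starts elsewhere, at base 97977255 against 98095621 for Pam-201, so this split does not separate the exon from the start site. The hearts were alike within 1 quantification, but the second gave 83.4% and 82.4%. The majority of Pam-201 with Pam-202 over Pam-210 was common to both quantifications, and its size was not.

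Prkg1 has 2 start sites, 100663 bases apart, which give the isoforms known as I alpha (Prkg1-201, 671 codons) and I beta (Prkg1-202, 686 codons), with different leading domains and partners. Prkg1-201 held 53.5% and 52.4% of the gene and Prkg1-202 held 21.04% and 29.7%. Of the sum of both, Prkg1-201 made up 71.7% and 63.8%, and 65.4% and 62.2% in the second quantification. Prkg1-201 was therefore the more abundant in each library by each quantification.

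Corin-201 and Corin-202 start 265 bases apart and have different first coding exons, of 267 and 69 bases, which code for the part of the protease inside the cell. Corin-201 (1113 codons) held 57.5% and 56.5% and Corin-202 (1047 codons) 30.6% and 30.9%, and in the second quantification 39.9% and 50.5% against 20.7% and 20.2%. Corin-201 led in all 4 cases. Corin-207 was at 0% in both hearts in the first quantification and at 12.6% and 13.4% in the second.

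Npr3-201 held 54.4% and 57.0% of its gene and Npr3-205 held 41.3% and 38.5%. They differ by 3 coding bases at the start, in the direction of the gene, of an exon of 88 or 85 bases, and Npr3-201 runs 4487 bases further at its 3′ end. Their balance was alike in the hearts, which differed in the level of the gene. Npr1-201 was the main transcript of its gene at 87.6% and 80.1%, and Npr2-201 of its own at 60.1% and 71.2%. A shorter transcript, Npr2-205, stood at 17.9% in replicate 1 and 2.71% in replicate 2, but at 3.24% and 0% in the second quantification, so its level was not settled.

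For Furin the quantifications disagreed. Furin-203 held 95.1% and 92.0% in the first, and 8.20% and 36.9% in the second, where Furin-201 took 42.3% and 31.4% and Furin-202 took 45.7% and 26.6%. These 3 transcripts all code for 793 codons and differ in their first exon, so the disagreement concerns the first exon and not the length of the protein.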

How the data were processed

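RNA sequencing covered 2 heart libraries of 1 group. The authors used mm10 and annotation M21, per the deposited notes. For each library they deposited a gene and transcript table with the column layout of RSEM (the first quantification) and a transcript table with that of kallisto (the second, summed here per gene). The deposited expected counts are the authors' estimated counts per gene or transcript, made from each library's reads and not normalized. The deposited TPM were scaled by length and library by the authors, and the first quantification adds transcript shares in percent, posterior means and posterior standard deviations of counts. Names and versions of the quantification programs: not given in the sources used here. Library totals were 36175363 and 32509660 expected counts.

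Here the counts were rounded and scaled by edgeR's TMM factors (version 4.0.16, under R 4.3.3), a prior count of 0.5 was added, and the split of both counts gave an exact 95% Clopper-Pearson interval. CPM was computed from the deposited counts. Python 3.11.15, numpy 2.4.6, pandas 2.3.3, scipy 1.17.1 and matplotlib 3.10.9 were used. Tested on simulated data over 55536 genes, the between-heart rule called 50 of 50 genes at each of the true folds 0.25, 3 and 4. It called 1 of 50 at 1.5 and 11 of 13398 unchanged genes. The simulated counts varied by counting error alone, without variation between animals or libraries, so these rates do not carry over to the hearts. In the deposited data 23.7% of tested genes had an interval that left out 0. Named genes were all members, up to 3 per related list by mean TPM with any called, 2 per marker list with those at 0 counts, and transcripts of at least 10% of their gene. Members and lists were chosen with earlier results of these data known. Alternatives were the second quantification, posterior mean, rescaled and length-free values, other scalings (DESeq2 1.42.0 size factors, total counts, spike-ins), filters and folds, and each library alone. Alleles of the parental strains were not analysed here.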

Additional observations from a re-analysis of the deposited data

How the results depend on the processing

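No paired analysis was possible because the 2 libraries form 1 group. The number of members at a TPM of 1 and the number called at a fold of 2 stayed at 9 and 0 under each alternative run, and at a fold of 1.5 the number called was 1. The mean level of Nppb moved from 302 to 492 TPM and that of Nppc from 0.300 to 0.528 in the second quantification. The log2 ratio of Nppa to Nppb was 0.998 in the second quantification and 1.57 in CPM, which is not scaled by length. That of Npr2 to Npr1 was -0.12 in the second quantification and -0.21 in CPM. That of Furin to Corin was 0.67 in the second quantification and 0.88 with posterior mean TPM. The cause of these shifts was not tested, apart from CPM, which carries gene length. CPM per kb of the mean effective length of both libraries was added after seeing the data. Scaling to the spike-ins lowered the share of called genes that were lower in replicate 2 from 62.4% to 46.9%, and calls over all genes numbered 117, against 584 with no filter on low values and 311 at a fold of 1.5. Depth limits Nppc, and 2 libraries limit every spread given.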
